A study of Mus musculus with 12 samples.

Results

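Mouse chromosome 12 carries 2 runs of closely related genes that encode mostly secreted protease inhibitors of serpin clade A. The 10 genes described here are Serpina1a, Serpina1b, Serpina1c, Serpina1d and Serpina1e, copies of the alpha-1-antitrypsin gene, and Serpina3c, Serpina3g, Serpina3k, Serpina3m and Serpina3n, relatives of the alpha-1-antichymotrypsin gene. They were chosen by name, with values of these same libraries known, from 41325 genes listed in each library, of which 24 carry a Serpina name. Levels, fold changes and calls of the 10 genes are therefore given as a description, with no test of their own. All 10 had enough reads to enter the model fitted to 16456 genes.

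RNA came from livers of 12 wild-type C57BL/6J mice, 4 in each of 3 groups, whose age and sex the labels used here do not give. In the CDDO-Me group, mice with NASH (nonalcoholic steatohepatitis, in which liver fat goes with inflammation and injury) received CDDO-Me at 10 mg/kg, by mouth for 8 weeks. CDDO-Me, or bardoxolone methyl, is a synthetic triterpenoid that activates the transcription factor NRF2. In the NASH vehicle group, mice with the same disease state received vehicle. The labels tie both NASH groups to a diet named CDAHFD. Control mice without NASH also received vehicle (control). Whether mice were littermates or housed together is not stated, and p-values measure the spread between these 12 livers.

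Serpins trap their target protease. The protease cuts an exposed stretch of the inhibitor, the reactive centre loop, and is then locked in a dead complex that receptors on liver cells clear. Alpha-1-antitrypsin is made mainly by hepatocytes and is best known as the plasma inhibitor of neutrophil elastase. Humans have 1 gene for it, whereas mice have several near-identical copies, and the alpha-1-antichymotrypsin gene is likewise multiplied in mice. The copies are known to differ most in the reactive centre loop, which sets the proteases that an inhibitor can trap.

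The loop is where the copies can be told apart by eye, so its coding sequence is shown for all 10 genes, 5′ to 3′, from GENCODE vM21 transcripts on GRCm38. In the 5 Serpina1 sequences, capitals mark bases that differ from Serpina1a, and there were 6 such bases in Serpina1b, 10 in Serpina1c, 9 in Serpina1d and 12 in Serpina1e over the 66 bases shown.
Serpina1a, chr12:103853750-103853815, minus strand: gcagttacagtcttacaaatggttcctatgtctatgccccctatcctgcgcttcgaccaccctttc
Serpina1b, chr12:103728317-103728382, minus strand: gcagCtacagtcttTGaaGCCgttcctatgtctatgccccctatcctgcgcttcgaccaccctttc
Serpina1c, chr12:103895087-103895152, minus strand: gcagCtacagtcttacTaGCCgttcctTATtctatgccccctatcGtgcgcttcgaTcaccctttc
Serpina1d, chr12:103763755-103763820, minus strand: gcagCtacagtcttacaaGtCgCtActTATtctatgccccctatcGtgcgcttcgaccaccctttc
Serpina1e, chr12:103947093-103947158, minus strand: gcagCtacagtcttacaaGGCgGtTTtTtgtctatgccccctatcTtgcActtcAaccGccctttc

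In the 5 Serpina3 sequences, capitals mark the stretch between conserved flanks, which runs over 42 to 51 bases and differs both in letters and in length between the copies.
Serpina3c, chr12:104147307-104147372, minus strand: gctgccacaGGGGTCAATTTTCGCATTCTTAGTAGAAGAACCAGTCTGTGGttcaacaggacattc
Serpina3g, chr12:104241087-104241161, plus strand: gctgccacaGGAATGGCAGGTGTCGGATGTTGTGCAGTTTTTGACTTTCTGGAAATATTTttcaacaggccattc
Serpina3k, chr12:104345284-104345352, plus strand: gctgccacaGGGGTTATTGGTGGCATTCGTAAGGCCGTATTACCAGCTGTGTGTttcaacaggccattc
Serpina3m, chr12:104393784-104393858, plus strand: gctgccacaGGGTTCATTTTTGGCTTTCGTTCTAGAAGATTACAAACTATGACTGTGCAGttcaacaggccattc
Serpina3n, chr12:104413463-104413537, plus strand: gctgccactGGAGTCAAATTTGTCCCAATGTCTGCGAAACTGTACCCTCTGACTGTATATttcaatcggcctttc

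Over whole coding sequences the Serpina1 copies were 96.3% to 98.5% identical to each other. Serpina1a and Serpina1c were the closest, with 19 different bases among 1239. Serpina3 copies were 81.9% to 92% identical, Serpina3k and Serpina3m being the closest, and Serpina3g has a coding sequence of 744 bases in the transcript used, against 1251 or 1254 in the other 4.

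Such likeness limits how far reads can be assigned to 1 copy. Reads were 75 bases long, so each gene's transcripts were divided into 75-base words. A word was counted as the gene's own when no other gene's transcript held it or its reverse complement. Serpina1c had the smallest share of own words, 26.4%, and it shared 62.9% of its words with Serpina1a. Own words made up 50.7% of Serpina1a, 62.9% of Serpina1d, 80.3% of Serpina1e and 81.0% of Serpina1b, and 90.3% to 99.7% of the Serpina3 copies.

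The share of reads that the authors counted as unique is a second measure of the same limit. In CDDO-Me livers it averaged 40.9% for Serpina1c, 45.4% for Serpina1a, 59.7% for Serpina1d, 82.8% for Serpina1b and 88.5% for Serpina1e, and in NASH vehicle and control livers each of these copies stood within 3 percentage points of that. Serpina3k stood apart from the other copies in the gap between these measures. It had 92.6% own words, the shared ones all with Serpina3m, yet 44.1% ± 0.3 unique reads in CDDO-Me livers, 44.2% ± 0.9 in NASH vehicle livers and 45.6% ± 0.7 in control livers (SD, n = 4 each). Of its reads across exon-exon joints, 96.4% to 97.6% were unique in every library. That trait was not its alone, since joint reads were 98.4% to 98.9% unique in Serpina1d and 96.4% to 97.6% in Serpina1b. They were 56.8% to 61.7% unique in Serpina1a and 56.2% to 61.6% in Serpina1c. The span of Serpina3k (chr12:104338486-104346144, plus strand) lies inside the annotated span of Serpina3m (chr12:104338486-104394257, plus strand), and that of Serpina1d (chr12:103763594-103773592, minus strand) inside that of Serpina1b (chr12:103728156-103830373, minus strand).

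**Figure D1:**
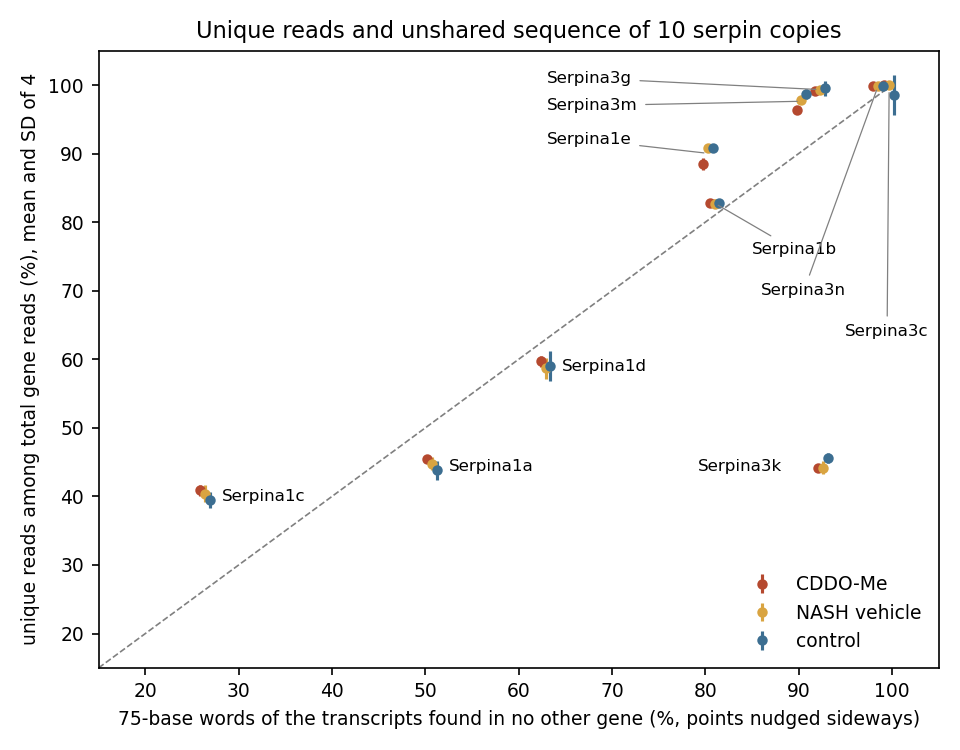
Share of total gene reads that were unique (vertical axis, %, mean and SD of 4 livers per group) against the share of 75-base words found in no other gene (horizontal axis, %) for the 10 copies. The points of each gene lie close together in all 3 groups, and Serpina3k stands far below the dashed line of equal shares.

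Calls of the edgeR model, fitted to total gene reads of all 12 livers at an adjusted p under 0.05, are set beside the share of all genes called. For CDDO-Me against NASH vehicle, 1 member was called higher, 4 lower and 5 not called, where 9.39% of all genes were called higher and 7.24% lower. In CDDO-Me against control, 1 was called higher, 7 lower and 2 not called, against 26.2% and 23.6% of all genes. For NASH vehicle against control, 2 were called higher, 7 lower and 1 not called, against 29.6% and 30.0% of all genes. Groups without overlap gave 1 member higher and 3 lower for CDDO-Me against NASH vehicle (11.4% and 10.2% of all genes), 1 and 7 for CDDO-Me against control (22.6% and 21.1%) and 2 and 7 for NASH vehicle against control (27.0% and 27.4%). Since the members were chosen with these values known, nothing is read from the counts. Each pair of these comparisons shares 1 group of livers.

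The 5 Serpina1 copies together had 4786, 5493, 5852 and 3779 CPM (counts-per-million, from total gene reads with TMM scaling) in CDDO-Me livers, 8712, 5362, 4934 and 5904 CPM in NASH vehicle livers and 29283, 31520.5, 26749 and 30649 CPM in control livers. In CPM, both NASH groups lay far below every control liver, and they overlapped each other. In deposited TPM, which is per transcript length, the 5 copies made up 0.733% ± 0.060 of all TPM in CDDO-Me livers, 1.08% ± 0.24 in NASH vehicle livers and 3.15% ± 0.15 in control livers (SD, n = 4 each). On that scale CDDO-Me livers (0.646% to 0.783%) and NASH vehicle livers (0.879% to 1.42%) did not overlap. Fewer hepatocytes and less RNA of these genes per hepatocyte cannot be told apart in bulk liver.

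The summed level of 8 hepatocyte markers was also lower in both NASH groups than in control livers. It was 37445 to 55581 CPM in CDDO-Me livers, 35994 to 58116 CPM in NASH vehicle livers and 85555 to 103646 CPM in control livers. Between CDDO-Me and NASH vehicle livers the marker sums overlapped. None of the 8 was at 0, so the labelled tissue and its defining markers are in accord. Their part in the results was not tested. Albumin itself averaged 30116 ± 6111 CPM in CDDO-Me livers, 27729.7 ± 6919 CPM in NASH vehicle livers and 59982 ± 5349.7 CPM in control livers (SD, n = 4 each). In TPM it was 31368 to 39944 in CDDO-Me livers, 30891 to 46504 in NASH vehicle livers and 42494 to 47483 in control livers, ranges that lie closer together than in CPM.

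The copies of alpha-1-antitrypsin did not keep their proportions. Serpina1e accounted for 0.109%, 0.0957%, 0.151% and 0.21% of the summed Serpina1 TPM in CDDO-Me livers, 7.76%, 1.78%, 3.47% and 4.68% in NASH vehicle livers, and 29.2%, 30.7%, 21.9% and 29.9% in control livers. The 3 groups were far apart in this share, with no overlap. Serpina1c held close to the same part in all groups, 29.6% to 34.1% in CDDO-Me livers, 29.1% to 31.7% in NASH vehicle livers and 31.3% to 37.0% in control livers. Serpina1a and Serpina1b made up larger parts in both NASH groups than in control livers. Serpina1a stood at 22.1% to 25.7% in CDDO-Me livers, 25.3% to 32% in NASH vehicle livers and 13% to 14.7% in control livers. Serpina1b made up 27.7% to 30.3% in CDDO-Me livers, 22.6% to 25.7% in NASH vehicle livers and 11.5% to 13.1% in control livers. Counted over unique reads alone, Serpina1e was 0.125% to 0.270% of the family in CDDO-Me livers, 2.44% to 10.8% in NASH vehicle livers and 31.8% to 42.3% in control livers. On that count Serpina1b was 52.2% to 55.5%, 43.2% to 48.4% and 22% to 26% in the same order of groups. Serpina1c was 15.3% to 17.7%, 15.3% to 16.9% and 15.4% to 19.6%. The size of each part thus depends on the measure, since unique reads leave out shared reads and transcript length.

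**Figure D2:**
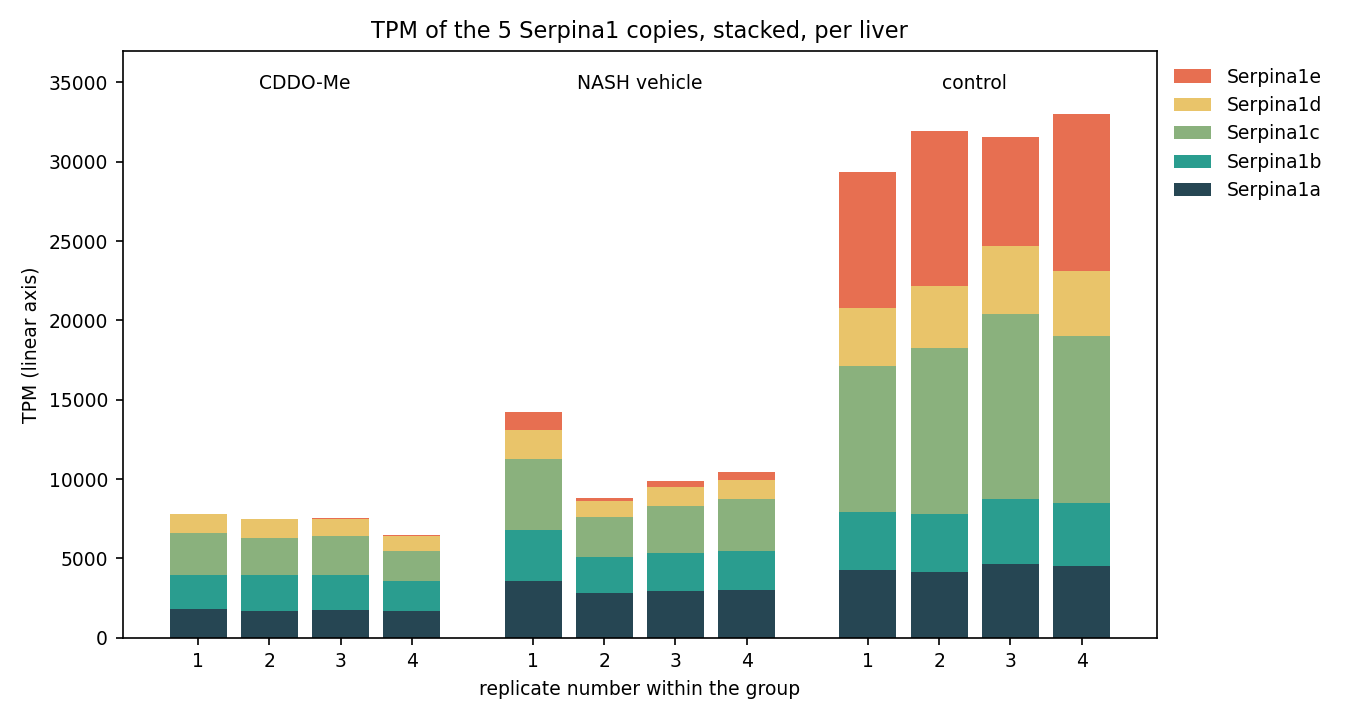
Deposited TPM of the 5 Serpina1 copies (vertical axis, linear, stacked by copy) in each of the 12 livers, grouped as CDDO-Me, NASH vehicle and control. Summed TPM was 6462 to 7826 in CDDO-Me livers, 8788 to 14206 in NASH vehicle livers and 29375 to 32988 in control livers, and the Serpina1e segment at the top is visible in control livers, thin in NASH vehicle livers and almost absent in CDDO-Me livers.

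Serpina1e had by far the widest range of the 10 genes. Its level was 4.71, 4.7, 8.03 and 7.14 CPM in CDDO-Me livers, 621, 85.6, 155 and 252 CPM in NASH vehicle livers, and 8428, 9587, 5798 and 9056 CPM in control livers. No 2 groups overlapped, and within NASH vehicle livers the values themselves spanned a wide range, with replicate 1 the highest. The means differed 1337-fold between CDDO-Me and control livers, with a log2 fold change of -10.39 ± 0.71 (edgeR, SE). Against NASH vehicle, the CDDO-Me livers had a log2 fold change of -5.50 ± 0.58, and NASH vehicle against control gave -4.88 ± 0.56. Without NASH vehicle replicate 1, these last 2 values were -4.74 and -5.65, a shift of over 1.5 times in fold with no change of call. The 177, 134, 220 and 249 reads in CDDO-Me livers are few but were 87.6% to 89.5% unique, and the fold changes on unique reads were -10.41, -5.53 and -4.88.

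Serpina1a was the other Serpina1 copy called lower in all 3 comparisons. It had 1149, 1250.2, 1417 and 993 CPM in CDDO-Me livers, 2325, 1762, 1537 and 1768 CPM in NASH vehicle livers, and 4728, 4625, 4425 and 4774 CPM in control livers. All 3 groups were apart. The log2 fold change was -0.62 ± 0.16 for CDDO-Me against NASH vehicle, -1.95 ± 0.16 for CDDO-Me against control and -1.33 ± 0.16 for NASH vehicle against control. On unique reads the same 3 values were -0.60, -1.88 and -1.28.

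Serpina1b, Serpina1c and Serpina1d were lower in both NASH groups than in control livers, and CDDO-Me and NASH vehicle livers overlapped. Serpina1b had 1809, 2246, 2299.8 and 1493 CPM in CDDO-Me livers, 2736, 1854, 1638 and 1912 CPM in NASH vehicle livers and 5436, 5403, 5209 and 5410.3 CPM in control livers. Serpina1c had 1259, 1312, 1454 and 845 CPM in CDDO-Me livers, 2152, 1187, 1142 and 1442 CPM in NASH vehicle livers and 7627, 8624, 8261 and 8166 CPM in control livers. Serpina1d had 564, 680.4, 673 and 439.6 CPM in CDDO-Me livers, 877, 473, 462 and 530.5 CPM in NASH vehicle livers and 3064, 3282, 3057 and 3242 CPM in control livers. In each of the 3 copies, NASH vehicle replicate 1 was the highest liver of its group and CDDO-Me replicate 4 the lowest of its own.

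None of these 3 copies was as low, relative to control, as Serpina1e. NASH vehicle livers had a log2 fold change against control of -1.40 ± 0.19 for Serpina1b, -2.46 ± 0.23 for Serpina1c and -2.43 ± 0.22 for Serpina1d. For CDDO-Me against NASH vehicle the values were -0.05 ± 0.18, -0.28 ± 0.22 and 0.01 ± 0.21 in the same order of genes, and none of the 3 passed the model's threshold. Serpina1c shares most of its words with Serpina1a, and its fold changes on unique reads, -2.42 against control and -0.26 against NASH vehicle, were close to those on total reads. The antisense gene B430119L08Rik overlaps Serpina1c and had 50 to 340 reads per library, beside 29484 to 223255 for Serpina1c. The strand setting of the counts is not given in the sources used here.

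Promoters of the Serpina1 copies are shown because copies with such different levels carry nearly the same sequence in the stretch shown. RefSeq gives a window from 250 bases before to 50 bases after the start for 8 of the 10 genes (GRCm38.p6), without an entry for Serpina3k and Serpina3m. Each line gives 120 bases around the letters GTTAAT, one of the motifs searched, and capitals mark differences from Serpina1a.
Serpina1a, chr12:103863581-103863700, minus strand: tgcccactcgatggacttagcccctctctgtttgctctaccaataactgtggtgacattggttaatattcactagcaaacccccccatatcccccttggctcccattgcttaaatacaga
Serpina1b, chr12:103738156-103738275, minus strand: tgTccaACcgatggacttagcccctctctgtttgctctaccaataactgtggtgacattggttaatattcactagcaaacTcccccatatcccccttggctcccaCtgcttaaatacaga
Serpina1c, chr12:103904918-103905037, minus strand: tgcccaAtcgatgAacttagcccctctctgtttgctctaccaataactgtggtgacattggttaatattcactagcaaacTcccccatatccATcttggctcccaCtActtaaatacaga
Serpina1d, chr12:103773590-103773709, minus strand: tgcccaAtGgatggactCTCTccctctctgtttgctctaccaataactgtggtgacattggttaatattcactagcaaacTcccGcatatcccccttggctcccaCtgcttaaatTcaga
Serpina1e, chr12:103956916-103957035, minus strand: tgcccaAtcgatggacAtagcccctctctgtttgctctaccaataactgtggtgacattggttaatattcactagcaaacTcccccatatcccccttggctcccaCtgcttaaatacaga

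Serpina1e differed from Serpina1a at 4 of these 120 bases, fewer than Serpina1b (5), Serpina1c (7) or Serpina1d (10). In the window of 300 bases, Serpina1e and Serpina1b were 98.4% identical across 248 aligned bases, and bases without a partner are left out of that share. Pairs of Serpina1 copies without Serpina1e aligned over 288 to 298 bases, so the Serpina1e window differs more than the share shows. The log2 fold changes for CDDO-Me against control were -10.39 for Serpina1e and -1.45 for Serpina1b. The part of promoter sequence in these values was not tested. Letters of 4 motifs were searched on both strands. GTTAAT was present in all 5 Serpina1 promoters and in that of Serpina3c, against 7.2% of 27025 promoters of the same length. TTGCNNAA, a C/EBP motif, was present in Serpina1a, Serpina1b, Serpina1d and Serpina1e (10.8% of all promoters), TTCNNNGAA, a STAT motif, in Serpina3g (8.47%), and TGACNNNGC, the core of the antioxidant response element bound by NRF2, in none of the 8 (12.5%). A match is only a description of letters, and a missing one says only that they are not in this window.

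Serpina3k, known as contrapsin, is the most abundant of the Serpina3 copies in mouse liver and plasma. It had 1377, 1584, 1818 and 915 CPM in CDDO-Me livers, 2112, 966, 880.1 and 1019 CPM in NASH vehicle livers and 9271, 10573, 8590.1 and 8600.2 CPM in control livers. Both NASH groups lay below all control livers and overlapped each other. The log2 fold change was 0.19 ± 0.28 for CDDO-Me against NASH vehicle, -2.70 ± 0.29 for CDDO-Me against control and -2.90 ± 0.30 for NASH vehicle against control. It supplied 69.1% to 80.2% of the summed Serpina3 TPM in CDDO-Me livers, 67.9% to 76.9% in NASH vehicle livers and 95.3% to 96.0% in control livers.

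Serpina3m was the only member that passed the threshold as higher in CDDO-Me than in NASH vehicle livers. In total gene reads it had 216, 235, 207 and 166 CPM in CDDO-Me livers, 156, 88.7, 85.4 and 114 CPM in NASH vehicle livers and 376, 412, 379.9 and 334 CPM in control livers. The 3 groups did not overlap, with log2 fold changes of 0.89 ± 0.18 for CDDO-Me against NASH vehicle, -0.87 ± 0.18 for CDDO-Me against control and -1.76 ± 0.18 for NASH vehicle against control. Its place relative to control depends on which reads are counted.

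Reads inside introns made up 10.3% to 13.9% of the Serpina3m total in CDDO-Me livers, 17.5% to 22.4% in NASH vehicle livers and 51.9% to 55.6% in control livers. Counted over exons alone, Serpina3m had 192, 209, 178 and 149 CPM in CDDO-Me livers, 121, 73.2, 69.5 and 90.7 in NASH vehicle livers and 181, 183, 170.0 and 157 in control livers. CDDO-Me and control livers then overlapped, and the log2 fold change on exon reads was 0.12 ± 0.16 for CDDO-Me against control, 1.04 ± 0.16 for CDDO-Me against NASH vehicle and -0.92 ± 0.16 for NASH vehicle against control. On deposited TPM, Serpina3m stood at 240.1 to 326 in CDDO-Me livers, 126 to 202 in NASH vehicle livers and 162 to 191 in control livers, so that CDDO-Me livers were above control. On log2(TPM + 1) that log2 fold change was 0.68, or 0.31 relative to the median of all genes, which was 0.37. Serpina3m intron reads equalled 1.58% to 1.86% of the reads of Serpina3k, the gene inside its span, in CDDO-Me livers, 1.60% to 2.30% in NASH vehicle livers and 2.05% to 2.44% in control livers. The part of Serpina3k RNA in the Serpina3m count was not tested.

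**Figure D3:**
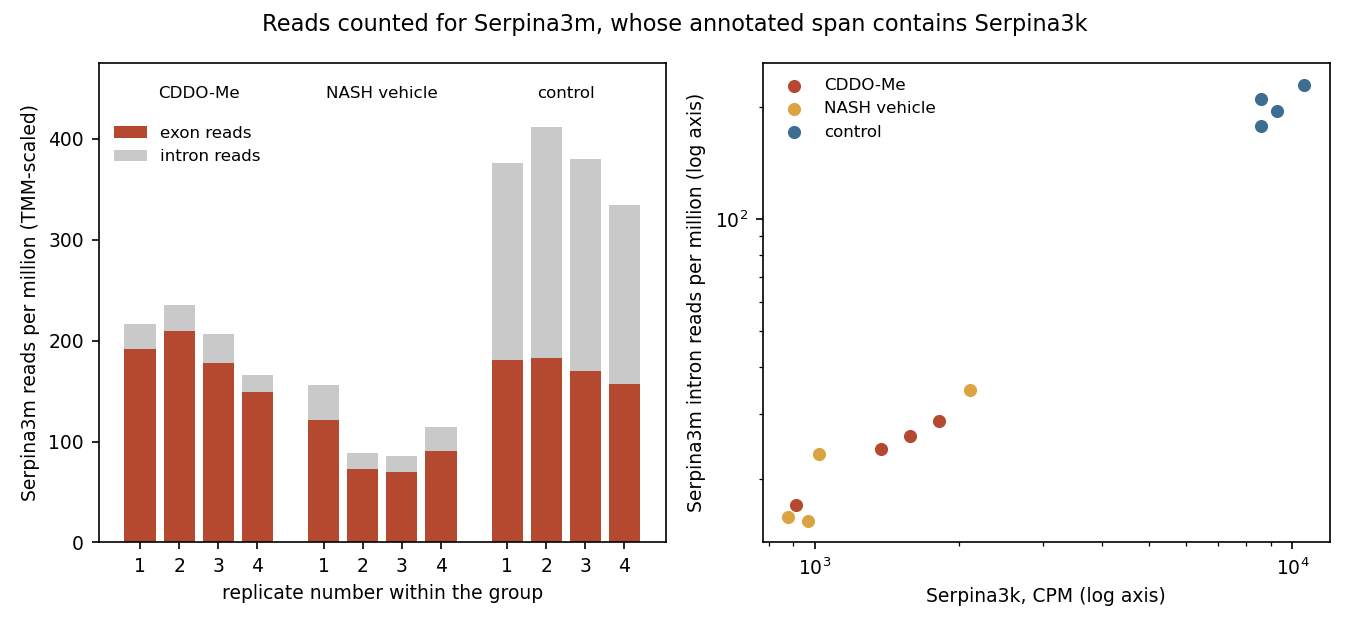
Left, exon and intron reads counted for Serpina3m (TMM-scaled CPM, linear axis, stacked) in each liver. Right, Serpina3m intron reads in CPM against Serpina3k CPM (both log axes), 1 point per liver. Exon reads alone were 149 to 209 CPM in CDDO-Me livers, 69.5 to 121 in NASH vehicle livers and 157 to 183 in control livers, and intron reads were highest where Serpina3k was.

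Serpina3g and Serpina3n were called higher in NASH vehicle livers than in control livers, unlike the other 8. Serpina3g, an intracellular serpin of immune cells in mice that inhibits cysteine cathepsins, had 13, 13.4, 12.2 and 15.4 CPM in CDDO-Me livers, 18.9, 18, 16.2 and 22.4 CPM in NASH vehicle livers and 2.27, 2.31, 2.66 and 2.1 CPM in control livers. No 2 groups overlapped. The log2 fold change was -0.48 ± 0.12 for CDDO-Me against NASH vehicle, 2.53 ± 0.14 for CDDO-Me against control and 3.01 ± 0.14 for NASH vehicle against control. The call against NASH vehicle was lost without NASH vehicle replicate 4 (-0.39) and without CDDO-Me replicate 3 (-0.43). Summed levels of 7 macrophage markers, none at 0, ran in the same order of groups, at 492 to 650.2 CPM in CDDO-Me livers, 939 to 1453 CPM in NASH vehicle livers and 96.5 to 137 CPM in control livers, and their part in the Serpina3g values was not tested.

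Serpina3n, an inducible acute phase serpin that inhibits granzyme B in mice, had 236, 293, 226 and 215 CPM in CDDO-Me livers, 482, 276, 297 and 353 CPM in NASH vehicle livers and 221, 218, 221 and 211 CPM in control livers. NASH vehicle livers were all above control, whereas CDDO-Me livers overlapped both other groups. The log2 fold change was -0.54 ± 0.16 for CDDO-Me against NASH vehicle, 0.16 ± 0.16 for CDDO-Me against control and 0.69 ± 0.16 for NASH vehicle against control. The call for CDDO-Me against NASH vehicle was lost without NASH vehicle replicate 1 (-0.35) or 4 (-0.54) and without CDDO-Me replicate 1 (-0.52), 3 (-0.50) or 4 (-0.48). In TPM, Serpina3n was 247 to 342 in CDDO-Me livers, 391 to 656 in NASH vehicle livers and 174 to 205 in control livers, with no overlap on that scale.

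Serpina3c had few reads, with 16, 12, 9 and 27 reads in CDDO-Me livers, 9, 45, 22 and 21 reads in NASH vehicle livers and 17, 13, 7 and 7 reads in control livers. The groups overlapped, and the log2 fold changes of -0.41 ± 0.49 for CDDO-Me against NASH vehicle, 0.11 ± 0.51 for CDDO-Me against control and 0.51 ± 0.50 for NASH vehicle against control did not pass the threshold. On log2(TPM + 1), NASH vehicle against control was called higher at 0.47, where the median of all genes was 0.51. Its promoter is shown beside that of Serpina3n because the 2 windows were 93.5% identical, with 19 different bases over 294 aligned, while Serpina3n RNA was present at 174 to 656 TPM and Serpina3c RNA at 0.226 to 1.58 TPM over all livers. Capitals mark bases that differ or have no partner.
Serpina3n, chr12:104406458-104406757, plus strand: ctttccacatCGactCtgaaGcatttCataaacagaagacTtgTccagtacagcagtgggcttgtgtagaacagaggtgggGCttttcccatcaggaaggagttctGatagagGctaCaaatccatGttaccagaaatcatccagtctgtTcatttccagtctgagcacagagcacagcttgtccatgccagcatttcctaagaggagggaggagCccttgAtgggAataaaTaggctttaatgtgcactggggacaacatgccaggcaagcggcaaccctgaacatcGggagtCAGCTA
Serpina3c, chr12:104153823-104154122, minus strand: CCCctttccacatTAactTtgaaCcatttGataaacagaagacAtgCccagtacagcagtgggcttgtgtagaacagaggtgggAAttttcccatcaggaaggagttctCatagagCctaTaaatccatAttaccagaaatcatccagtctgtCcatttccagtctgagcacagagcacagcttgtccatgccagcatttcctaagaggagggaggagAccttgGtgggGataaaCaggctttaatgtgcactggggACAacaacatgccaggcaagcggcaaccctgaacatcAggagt

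**Figure D4:**
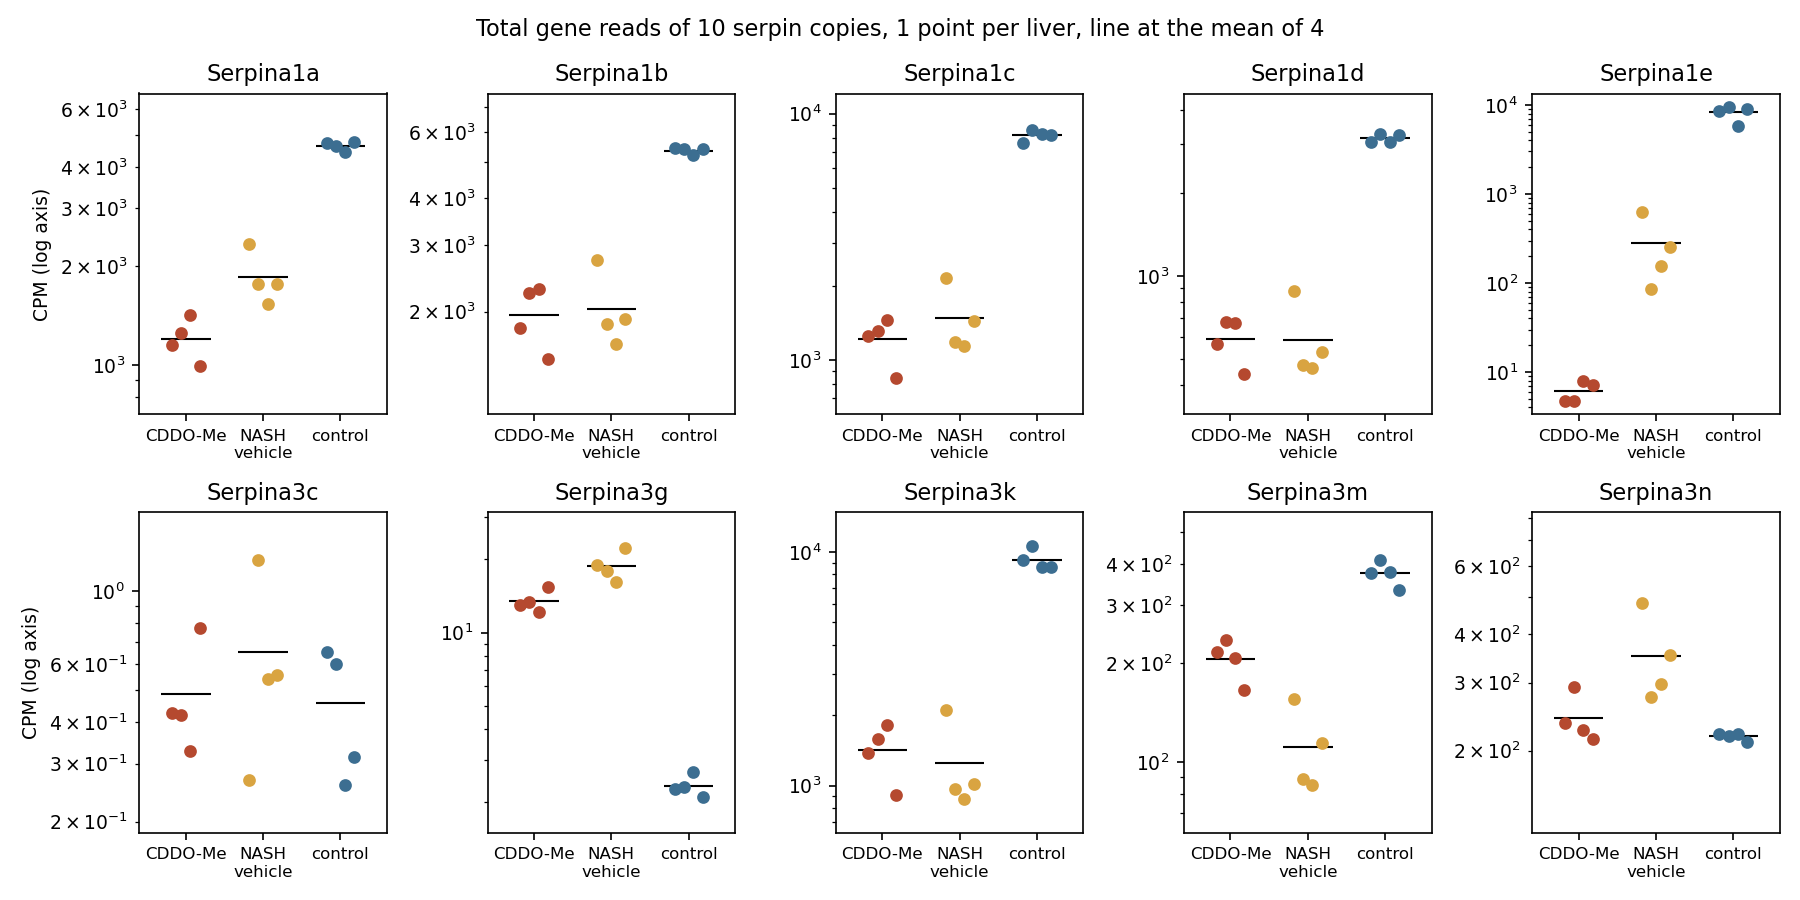
Level of each of the 10 genes in TMM-scaled CPM (log axes with a separate range per gene), 1 point per liver and a line at the mean of 4, with CDDO-Me, NASH vehicle and control from left to right. Serpina1e runs over more than 3 powers of 10, the other Serpina1 copies and Serpina3k are lower in both NASH groups, and Serpina3g is higher in both.

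Ordered by mean TPM, control livers had Serpina1c first at 9199.9 to 11677, then Serpina1e at 6925 to 9875 and Serpina3k at 7342 to 8489.6, neighbours whose ranges overlapped. Serpina1a (4149 to 4629), Serpina1d (3645 to 4231) and Serpina1b (3682 to 4127) followed and also overlapped from one to the next. Serpina3n and Serpina3m overlapped at 162 to 205, far below them, and Serpina3g (1.61 to 2.28) and Serpina3c (0.226 to 0.450) came last. In CDDO-Me livers Serpina1c (1910.5 to 2669), Serpina1b (1895 to 2276), Serpina3k (1361 to 2017) and Serpina1a (1661 to 1803) formed an overlapping top. Serpina1d (982 to 1202) came next, then Serpina3n (247 to 342) and Serpina3m (240.1 to 326), and Serpina1e, at 7.18 to 13.6 TPM, had dropped to the ninth place and overlapped Serpina3g (12.1 to 20.8). In NASH vehicle livers Serpina1e, at 157 to 1102 TPM, was the sixth. It overlapped Serpina1d (1003 to 1804) above it and Serpina3n (391 to 656) and Serpina3m (126 to 202) below it.

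The median log2 fold change of the 10 genes was -0.34 for CDDO-Me against NASH vehicle, -1.70 for CDDO-Me against control and -1.58 for NASH vehicle against control, beside -0.01, 0.03 and -0.01 over all genes. Scaling matters in these livers. TMM factors were 1.08 ± 0.11 in CDDO-Me libraries, 1.20 ± 0.08 in NASH vehicle libraries and 0.777 ± 0.040 in control libraries (SD, n = 4 each). With library totals in place of TMM, the median of all genes moved to -0.16, 0.51 and 0.62 in the same order of comparisons, and the calls to 926 higher and 1589 lower, 8678 and 1125, and 9908 and 1326. In the TMM fit these counts were 1545 and 1191, 4317 and 3881, and 4874 and 4945. The share of calls that were higher was thus 56.5%, 52.7% and 49.6% with TMM, 36.8%, 88.5% and 88.2% with library totals, and 23%, 91.6% and 92.6% with limma on log2(TPM + 1). Relative to the median of all genes, the members' median with library totals was -0.33, -1.75 and -1.58, close to the TMM values. Serpina1e, relative to that median, was at -5.46, -10.41 and -4.91. Leaving out TMM shifts all genes of a comparison by nearly the same amount, which the subtraction removes. The closeness was therefore fixed in advance and is no check on the scaling.

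**Figure D5:**
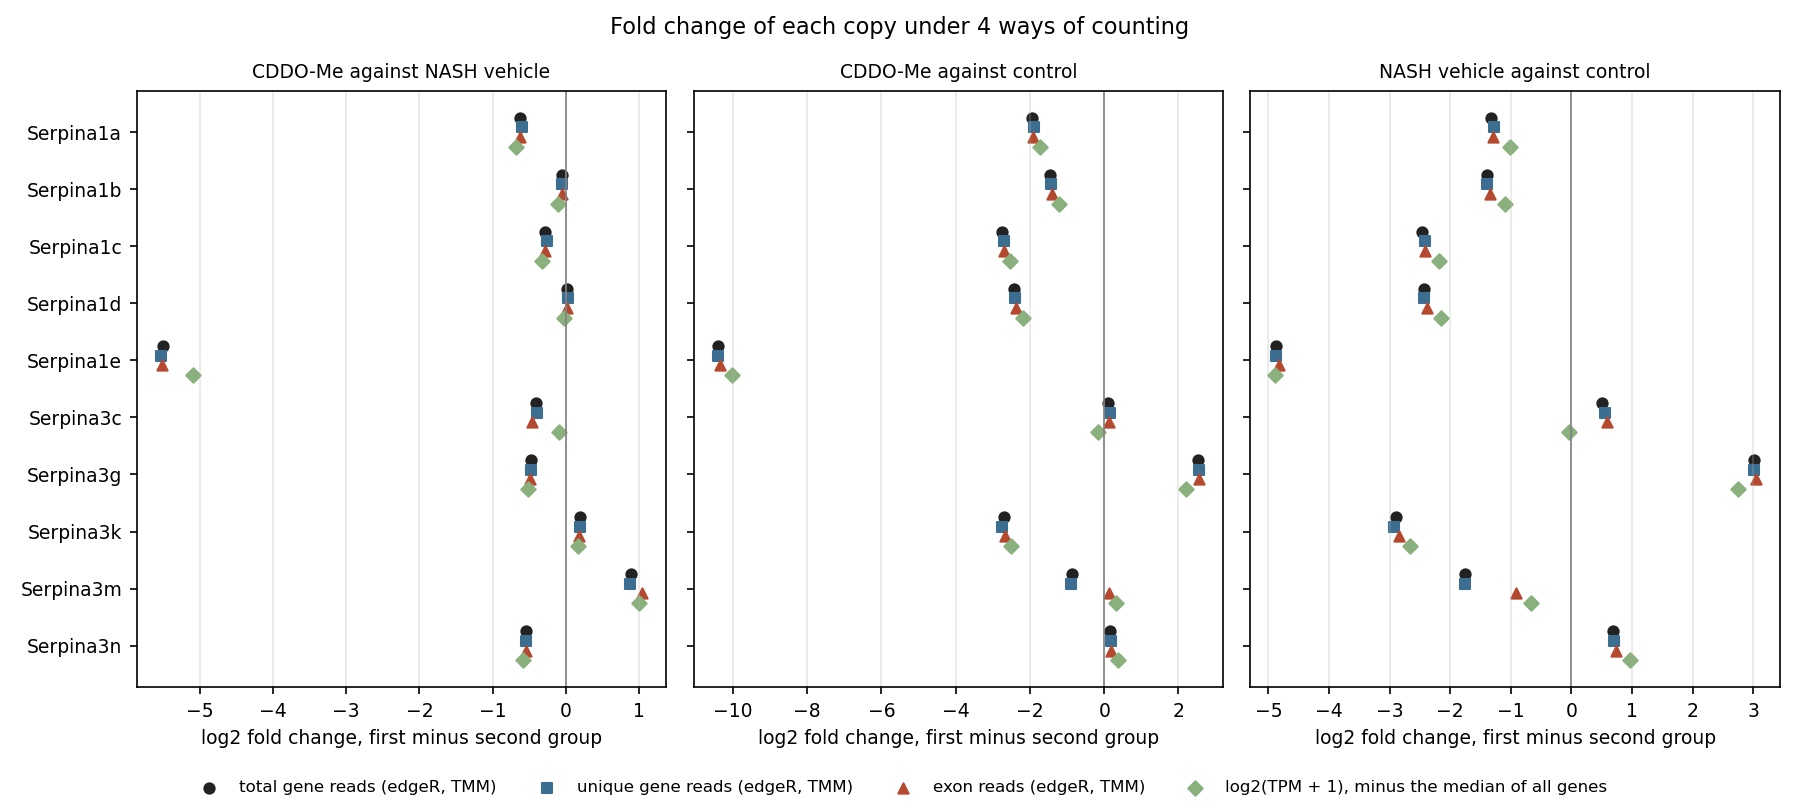
Log2 fold change (horizontal axis, first minus second group) of the 10 genes in the 3 comparisons under 4 ways of counting, with the TPM values shown relative to the median of all genes. Closeness of the TPM markers to the others rests in part on that subtraction. Without it, NASH vehicle against control was at -0.51 for Serpina1a and 1.48 for Serpina3n in TPM, not at -1.02 and 0.97 as shown. The 4 markers of most genes lie close together, with the widest spread for Serpina3m against control, where exon reads gave 0.12 for CDDO-Me and -0.92 for NASH vehicle, against -0.87 and -1.76 in total gene reads, and for Serpina3c, which has few reads.

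Genes whose profile lay nearest to each member were found by the root mean square difference of centred log2 CPM over the 12 libraries, among 12736 genes. Igf1, a growth hormone target, was nearest to Serpina1a (0.13), with the fibrinogen chain gene Fgb and the syndecan gene Sdc1 next (0.16 each). Tfr2, Agpat2 and Cyp2c23 lay nearest to Serpina1b (0.10 to 0.11). Gnmt, a methyl group enzyme, and Igfals, the partner of circulating IGF1, were the nearest 2 for both Serpina1d (0.12 and 0.17) and Serpina1c (0.23 and 0.21).

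The root mean square difference grows with the range of the member itself. For Serpina1e, which had the widest range, the nearest gene lay farther off than for any other member. Scd1, which encodes the main liver fatty acid desaturase, was nearest at 0.80, beside a root mean square of 4.29 for Serpina1e itself. It averaged 14 CPM in CDDO-Me livers, 180.0 CPM in NASH vehicle livers and 11588 CPM in control livers. The major urinary protein genes Mup1 (1.73) and Mup11 (1.92) came next. Ces1e, Slc10a1 and Slc30a10 were nearest to Serpina3k (0.23 to 0.27), Timd2, Cyp2d40 and Slc46a3 to Serpina3m (0.15 to 0.17), Abcg1, Pld4 and Bin2 to Serpina3g (0.17 to 0.21), and Sesn3, Plvap and Herc6 to Serpina3n (0.16 to 0.17). Scai, Ccdc71l and Sertad1 were nearest to Serpina3c, but at 0.38 to 0.39 beside a root mean square of 0.57 for Serpina3c itself. Among the members, Serpina1c and Serpina1d were the closest pair (0.17), then Serpina1d and Serpina3k (0.24) and Serpina1a and Serpina1b (0.26).

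Counts of related genes are from the TMM fit, their CPM are means ± SD of 4 livers, and each list's median log2 fold change stands beside medians of -0.01, 0.03 and -0.01 over all genes for CDDO-Me against NASH vehicle, CDDO-Me against control and NASH vehicle against control. With library totals the medians over all genes were -0.16, 0.51 and 0.62 in that order, and on log2(TPM + 1) they were -0.16, 0.37 and 0.51. Counts of a list on these scales therefore include a shift of all genes. Other clade A serpins had members called in both directions. Of 15 listed, 14 were in the tables and 8 were tested. NASH vehicle against control had 3 higher, 4 lower and 1 not called, CDDO-Me against control 2, 5 and 1, and CDDO-Me against NASH vehicle 0, 1 and 7, with list medians of -0.33, -0.54 and -0.31 in that order. The balance for NASH vehicle against control turned with the scale, to 4 higher and 3 lower with library totals and 4 and 1 on log2(TPM + 1), and for CDDO-Me against control it was 2 and 3, and 3 and 3. Serpina7, the thyroxine-binding globulin gene, averaged 89.4 ± 13.9 CPM in CDDO-Me livers, 84 ± 14 CPM in NASH vehicle livers and 34.2 ± 7.55 CPM in control livers, and rose against control in both (edgeR adjusted p = 2.4e-05 and 2.6e-05). Serpina6, which encodes corticosteroid-binding globulin, fell to 78.9 ± 12.7 CPM in NASH vehicle livers, against 144 ± 15.8 CPM in control livers (log2 fold change -0.87 ± 0.13, edgeR adjusted p = 7.0e-05, not called at -0.25 with library totals). Serpina10, the gene of the factor Xa inhibitor ZPI, was the 1 clade A relative that fell with CDDO-Me, to 161 ± 16.7 CPM in CDDO-Me livers, against 246 ± 33.9 CPM in livers of the NASH vehicle group (edgeR adjusted p = 0.0075). Serpina3f, a Serpina3 copy outside the 10, averaged 4.33 ± 0.68 CPM in CDDO-Me livers, 4.04 ± 0.44 CPM in NASH vehicle livers and 1.34 ± 0.33 CPM in control livers (edgeR adjusted p = 3.2e-05 and 3.4e-05 against control).

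Serpins of other clades, 13 genes that were all tested, had 6 higher, 5 lower and 2 not called in NASH vehicle against control, 5, 6 and 2 in CDDO-Me against control and 0, 3 and 10 in CDDO-Me against NASH vehicle, with list medians of 0.26, 0.26 and -0.42. Library totals gave 7 higher and 3 lower, 6 and 5, and 0 and 6 in the same order, and log2(TPM + 1) gave 8 and 2, 6 and 5, and 0 and 7. Serpinc1, the antithrombin gene, fell to 1105 ± 186 CPM in CDDO-Me livers and 1047 ± 130.3 CPM in NASH vehicle livers, against 2445 ± 86.7 CPM in control livers (edgeR adjusted p = 2.9e-05 and 1.1e-05). Serpinh1, a collagen chaperone, averaged 86.2 ± 17.4 CPM in CDDO-Me livers, 156 ± 41.1 CPM in NASH vehicle livers and 30.5 ± 3.9 CPM in control livers. It rose in NASH vehicle against control (log2 fold change 2.36 ± 0.20, edgeR adjusted p = 9.5e-07) and fell in CDDO-Me against NASH vehicle (-0.86 ± 0.19, adjusted p = 0.0098), where the livers of these groups overlapped. Summed levels of 6 stellate cell markers, none at 0, were 466 to 747 CPM in CDDO-Me livers, 771 to 1074 CPM in NASH vehicle livers and 200.5 to 268 CPM in control livers, and their part in the Serpinh1 values was not tested. Serping1, the C1 inhibitor gene, fell with CDDO-Me to 257 ± 9.98 CPM, against 379 ± 53.9 CPM in livers of the NASH vehicle group (edgeR adjusted p = 0.0039).

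Of 9 serine proteases that clade A serpins can inhibit, 5 were tested. NASH vehicle against control had 1 higher, 3 lower and 1 not called, and CDDO-Me against control had the same counts, while CDDO-Me against NASH vehicle had 1, 0 and 4, with list medians of -1.02, -0.82 and 0.20. For NASH vehicle against control, 2 were higher and 3 lower with library totals, and 2 and 2 on log2(TPM + 1). Cela1, a pancreas-type elastase, averaged 13.4 ± 1.95 CPM in CDDO-Me livers, 7.56 ± 0.66 CPM in NASH vehicle livers and 28.5 ± 7.64 CPM in control livers, so it fell in NASH vehicle against control (log2 fold change -1.92 ± 0.18, edgeR adjusted p = 1.3e-06) and rose in CDDO-Me against NASH vehicle (0.83 ± 0.18, adjusted p = 0.0066). Klkb1, the plasma prekallikrein gene, fell to 169 ± 29.8 CPM in CDDO-Me livers and 154 ± 27.8 CPM in NASH vehicle livers, against 384 ± 41.4 CPM in control livers, with 54.8% unique reads. The 6 neutrophil markers, with elastase among them, summed to 9.74 to 13.6 CPM in CDDO-Me livers, 14.7 to 17.2 CPM in NASH vehicle livers and 0.85 to 1.77 CPM in control livers, where 1 of the 6 had no reads.

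Acute phase plasma proteins, the class of liver products that inflammation changes, split in both directions. NASH vehicle against control had 10 higher, 7 lower and 2 not called of 19 tested, CDDO-Me against control 7, 7 and 5, and CDDO-Me against NASH vehicle 2, 8 and 9, with list medians of 0.31, -0.10 and -0.41. The even split for CDDO-Me against control was that of the TMM fit alone among these scales, since it was 10 higher and 7 lower with library totals and 12 and 6 on log2(TPM + 1). NASH vehicle against control then had 12 and 5, and 13 and 5, and CDDO-Me against NASH vehicle 1 and 12, and 1 and 13. Lcn2, an iron-siderophore binding protein, averaged 135 ± 22.2 CPM in CDDO-Me livers, 323 ± 68.4 CPM in NASH vehicle livers and 1.52 ± 0.49 CPM in control livers. It rose in NASH vehicle against control (log2 fold change 7.72 ± 0.25, edgeR adjusted p = 2.7e-10) and fell in CDDO-Me against NASH vehicle (-1.25 ± 0.18, adjusted p = 0.00048). Orm2 and Orm3 encode related orosomucoids, plasma carriers of small molecules. Orm2 fell to 75.6 ± 10.5 CPM in CDDO-Me livers, against 154 ± 20 CPM in livers of the NASH vehicle group (edgeR adjusted p = 0.00062), and Orm3 rose to 19.9 ± 2.77 CPM, against 9.73 ± 1.73 CPM in NASH vehicle livers (adjusted p = 0.0037).

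The cytokine signal that drives acute phase genes had 9 of 16 tested genes higher, 2 lower and 5 not called in NASH vehicle against control, 7, 3 and 6 in CDDO-Me against control and 1, 4 and 11 in CDDO-Me against NASH vehicle, with list medians of 0.56, 0.55 and -0.15. More of these genes were called higher than control on other scales, with 14 higher and 1 lower for NASH vehicle and 13 and 1 for CDDO-Me with library totals, and 15 and 1, and 13 and 1, on log2(TPM + 1). CDDO-Me against NASH vehicle had 0 and 5, and 0 and 6. Osmr, the oncostatin M receptor, averaged 10.1 ± 1.96 CPM in CDDO-Me livers, 17 ± 2.81 CPM in NASH vehicle livers and 2.27 ± 0.45 CPM in control livers. It rose in NASH vehicle against control (edgeR adjusted p = 1.0e-07) and fell in CDDO-Me against NASH vehicle (adjusted p = 0.012). Stat3, which relays interleukin-6 signals, fell to 76.5 ± 3.17 CPM in CDDO-Me livers, against 102 ± 17.1 CPM in livers of the NASH vehicle group (edgeR adjusted p = 0.021), a call lost without CDDO-Me replicate 3 (-0.39). Cebpd averaged 23.5 ± 2.34 CPM in CDDO-Me livers, 31.7 ± 11.8 CPM in NASH vehicle livers and 7.12 ± 0.82 CPM in control livers, higher than control in both (edgeR adjusted p = 3.5e-05 and 3.8e-06). Lifr, among the genes called lower, went the other way. It averaged 78.7 ± 9.14 CPM in CDDO-Me livers, 75.5 ± 7.83 CPM in NASH vehicle livers and 364 ± 84.5 CPM in control livers (edgeR adjusted p = 3.2e-07 and 1.5e-07 against control).

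Growth hormone signalling through STAT5 maintains many liver secretory genes of mice. Of its 10 genes, 1 was higher, 6 lower and 3 not called in NASH vehicle against control, 1, 7 and 2 in CDDO-Me against control and 0, 3 and 7 in CDDO-Me against NASH vehicle, with list medians of -1.32, -1.20 and -0.17. Fewer were lower than control on other scales. NASH vehicle against control had 2 higher and 4 lower with library totals and 3 and 3 on log2(TPM + 1), CDDO-Me against control 2 and 4 on both, and CDDO-Me against NASH vehicle 0 and 4 on both. Ghr, the growth hormone receptor, fell to 206 ± 34.5 CPM in CDDO-Me livers and 214 ± 42.6 CPM in NASH vehicle livers, against 656 ± 72.2 CPM in control livers (edgeR adjusted p = 2.8e-06 and 2.3e-06). Igf1 averaged 145 ± 19.9 CPM in CDDO-Me livers, 209 ± 38.1 CPM in NASH vehicle livers and 539 ± 57 CPM in control livers. It fell in NASH vehicle against control (edgeR adjusted p = 4.7e-06) and in CDDO-Me against NASH vehicle (-0.53 ± 0.15, adjusted p = 0.025), where the livers overlapped. That second call was lost without NASH vehicle replicate 1 (-0.45) or 2 (-0.46) and without CDDO-Me replicate 1 (-0.50) or 3 (-0.56).

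Of 12 hepatocyte transcription factors, 0 were higher and 10 lower in NASH vehicle against control, 1 higher and 8 lower in CDDO-Me against control, and 3 higher and 0 lower in CDDO-Me against NASH vehicle, with list medians of -0.85, -0.69 and 0.16. These counts depend on the scale: with library totals they were 1 and 4, 3 and 4, and 1 and 0, and on log2(TPM + 1) they were 2 and 1, 3 and 2, and 1 and 1. Nr1i3, the xenobiotic receptor CAR, rose with CDDO-Me to 219.7 ± 21.2 CPM, against 79 ± 17 CPM in livers of the NASH vehicle group (log2 fold change 1.48 ± 0.17, edgeR adjusted p = 9.2e-05), with 40.1% unique reads.

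Secreted serpins fold in the endoplasmic reticulum. Of 18 genes for folding, export and disposal there, 0 were higher, 13 lower and 5 not called in NASH vehicle against control, 0, 7 and 11 in CDDO-Me against control, and all 18 were not called in CDDO-Me against NASH vehicle, with list medians of -0.41, -0.36 and 0.19. The direction of the calls turned with the scale, where calls over all genes shifted too. With library totals, 7 were higher and 2 lower in NASH vehicle against control and 7 and 1 in CDDO-Me against control, and on log2(TPM + 1) the counts were 10 and 0, and 8 and 0. Over all 16456 genes, NASH vehicle against control had 9908 higher and 1326 lower with library totals, and 10905 and 873 on log2(TPM + 1). CDDO-Me against control had 8678 and 1125, and 8845 and 812. Lman1, a cargo receptor for secreted glycoproteins, averaged 197 ± 31 CPM in CDDO-Me livers, 153 ± 16 CPM in NASH vehicle livers and 310.2 ± 52.1 CPM in control livers (edgeR adjusted p = 0.002 and 4.5e-05 against control), and on log2(TPM + 1) its log2 fold changes were -0.04 and -0.17, not called.

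The last list held 2 receptors that clear serpin complexes and Lrpap1, a chaperone of these receptors. It had 0 higher, 0 lower and 3 not called in NASH vehicle against control, 1, 1 and 1 in CDDO-Me against control and 0, 2 and 1 in CDDO-Me against NASH vehicle, with list medians of 0.32, -0.16 and -0.26. With library totals, and on log2(TPM + 1), 3 were higher and 0 lower in NASH vehicle against control and 2 and 0 in CDDO-Me against control. Lrp1 fell with CDDO-Me to 611 ± 32.7 CPM, against 851 ± 94.7 CPM in livers of the NASH vehicle group (edgeR adjusted p = 0.025). Of the fits with 1 library left out, the call was lost without NASH vehicle replicate 3 (-0.49) or 4 (-0.45) and without CDDO-Me replicate 1 (-0.48) or 3 (-0.47).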

How the data were processed

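Per the labels' protocols, poly(A) RNA from 12 livers went into NEBNext Ultra II libraries read as 75-base pairs. The authors deposited whole-number counts per gene (total, unique, exon, exon-exon and intron reads), TPM, RPKM (not used) and the fraction of unique and intron reads, per the file headers. The build is GRCm38, per the submitters' processing notes. The sources used here name neither aligner nor strand setting, nor how reads with several places were treated, so the split of shared reads among copies is uncertain. Totals were 28161057 to 33852338 gene reads per library.

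Total gene reads were fitted with edgeR 4.0.16 in R 4.3.3 (filterByExpr with minimum count 10 and minimum total 15, TMM, robust quasi-likelihood, 1 mean per group, all 12 libraries), two-sided, with Benjamini-Hochberg adjustment over 16456 genes at 0.05. Each SE was taken from the F statistic (size of the log2 fold change over root F) and is not a fitted error. CPM are TMM-scaled. The model was tested on simulated data. Alternatives were DESeq2 1.42.0 (size factors, Wald test), library totals, no filter, unique and exon reads, limma 3.58.1 on log2(TPM + 1) and log2(TPM + 0.1), 8 libraries, a replicate block and each library left out. Members and 9 gene lists were chosen with earlier results of these data known, and 1 gene of each of 2 lists is not reported here. Up to 4 genes per list and comparison with the lowest p and mean CPM of at least 1 could be named, and the 3 nearest genes per member.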

Additional observations from a re-analysis of the deposited data

Results flagged for a closer look

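In 36 groups of 4 livers (10 genes and 2 family sums in 3 groups), 4 had a liver whose gap to the nearest other, as a share of the group's range, exceeded Dixon's 95% limit. Chance gives about 1 in 20. Serpina1d in NASH vehicle replicate 1 was the highest of its group at 877 CPM, with the others at 462 to 530.5 CPM. Serpina3k in the same liver was the highest at 2112 CPM, with the others at 880.1 to 1019 CPM, and the Serpina3 sum, which consists mostly of Serpina3k, stood at 2769 CPM there and at 1279.6 to 1509 CPM in the others. Serpina1b in control replicate 3 was the lowest of its group at 5209 CPM, with the others at 5403 to 5436 CPM, a narrow range.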

How the results depend on the processing

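The fold changes of Serpina1a, Serpina1b, Serpina1c, Serpina1d, Serpina1e, Serpina3g and Serpina3k kept direction and call against control in all 18 alternatives tried for each. Serpina3m did not: CDDO-Me against control turned to 0.12 on total exon reads (not called) and to 0.68 on log2(TPM + 1) and on log2(TPM + 0.1), where it was called higher, and NASH vehicle against control was not called on either TPM scale. Beside the 0.68 on log2(TPM + 1), the median of all genes was 0.37. Serpina3n for CDDO-Me against control was called higher with library totals without TMM and on both TPM scales. Its log2 fold change was 0.62 with library totals and 0.74 on log2(TPM + 1), beside medians of all genes of 0.51 and 0.37. Serpina1c for CDDO-Me against NASH vehicle and Serpina3c for NASH vehicle against control were called on both TPM scales alone. On log2(TPM + 1) they stood at -0.49 and 0.47, beside medians of all genes of -0.16 and 0.51. The members called higher for CDDO-Me against control were 2 with library totals and 3 on both TPM scales, against 1. The cause was not tested.

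Counts over all genes moved with the scale and the test, which change together in limma on TPM. Called higher and lower for NASH vehicle against control were 9908 and 1326 with library totals, 10905 and 873 on log2(TPM + 1), and 11069 and 872 on log2(TPM + 0.1). For CDDO-Me against control they were 8678 and 1125, 8845 and 812, and 9243 and 817. For CDDO-Me against NASH vehicle, 926 were higher with library totals, 779 and 719 on the TPM scales with 2607 and 1968 lower, and 1853 lower with the DESeq2 Wald test, against 1377 with DESeq2 size factors in the edgeR test. The summed copies, as log2 ratios, were -1.54 (Serpina1) and -1.68 (Serpina3) in TPM for NASH vehicle against control, against -2.25 and -2.51 in CPM, and -2.10 and -1.77 for CDDO-Me against control, against -2.57 and -2.39. On the TPM scales Derl2 (0.00) and Nr5a2 (0.12 and 0.13) turned for NASH vehicle against control, and Derl2 (0.08), Edem1 (0.03) and Lrpap1 (0.22 and 0.23, and 0.08 with library totals) for CDDO-Me against control.

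Leaving out 1 library gave 930 to 1972 genes higher, 617 to 1453 lower, and 2 to 4 members lower for CDDO-Me against NASH vehicle. Without NASH vehicle replicate 4 there were 930 higher, and without CDDO-Me replicate 3 there were 617 lower. The labels used here give no pairing of livers by replicate number. Deviations of same-numbered libraries correlated at -0.22 to 0.19, over 0.1 in 2 of 12 pairs. With 4 livers behind each group mean, these values cannot exclude a shared cage or batch. A replicate block left 1250 genes higher and 927 lower and 3 members lower for that comparison, Serpina3n no longer among them, and the Lrp1 call was lost (-0.48). Serpina3c had 7 to 45 reads per library, and whether depth or the spread between livers limits its test was not tested.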
